A study of Mus musculus with 4 samples.

Results

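The myelin sheath genes *Mbp*, *Mobp*, *Mog*, *Mag*, *Cnp*, *Mal*, *Cldn11*, *Ermn* and *Aspa* were followed by symbol through 4 spatially barcoded sections of *Nf1*+/- mouse brain. All 9 of the 9 symbols were found among the 32285 genes of the files, and all 9 were detected in every section. The sections were cut at 10 µm from fresh frozen, OCT-embedded brain for the Visium assay, in which polyadenylated RNA from the small piece of tissue over a barcoded spot is captured together. All 4 sections share the genotype *Nf1*+/-, in which 1 copy of the gene for the RAS regulator neurofibromin is mutant in every cell, and the labels name no treatment. The background stated in the methods is C57/BL6. The labels name neither the age of these mice nor whether the sections came from separate mice, and no wild-type section was analysed here, so n counts sections, the numbers 1 to 4 only name them, and nothing below compares genotypes.

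Myelin is the membrane that oligodendrocytes wrap around axons, and it is densest in white matter tracts such as the corpus callosum. In compact myelin, MBP draws the cytoplasmic faces of neighbouring wraps together, while the uncompacted loops at the paranodes and the innermost and outermost layers keep cytoplasm, adhesion molecules and enzymes. The mRNAs of *Mbp* and *Mobp* are known to be carried out of the cell body into the myelin processes, whereas most other myelin mRNAs are translated nearer the cell body.

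Among the compact-membrane genes were *Mbp* (ENSMUSG00000041607), *Mobp* (ENSMUSG00000032517, chr9:120149742-120181488), whose small basic protein lies in the cytoplasmic apposition, *Mal* (ENSMUSG00000027375, chr2:127633226-127656695), a raft-associated proteolipid, and *Cldn11* (ENSMUSG00000037625, chr3:31149920-31164326), which forms the tight-junction strands of the sheath. The genes of the surfaces and of uncompacted myelin were *Mog* (ENSMUSG00000076439, chr17:37010740-37023398), found on the outermost surface, *Mag* (ENSMUSG00000036634, chr7:30899175-30914922), an adhesion receptor of the innermost layer facing the axon, and *Cnp* (ENSMUSG00000006782, chr11:100574909-100591875), an enzyme of the cytoplasmic channels. *Ermn* (ENSMUSG00000026830, chr2:58045115-58052864) encodes a cytoskeletal protein of mature oligodendrocytes, and *Aspa* (ENSMUSG00000020774, chr11:73304987-73326876) the oligodendrocyte enzyme that cleaves N-acetylaspartate. Gene spans are those of RefSeq on GRCm38.p6, the build also called mm10. The genes that build the paranodal junction itself (*Cntn1*, *Cntnap1* and *Nfasc*) are not among the 9 and are described separately.

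Promoter windows in the RefSeq-derived table (GRCm38.p6, 250 bases before to 50 bases after a start) were found for 8 of the 9 genes. They were searched on both strands for ACAAAG and ACAATG, core sequences of SOX-family factors, and for CTGGCAC and CTGGTAC, sequences linked to the myelin regulator MYRF, and on the forward strand for TATAAA. The windows of *Mobp*, *Mag* and *Mog* are shown because *Mobp* and *Mag* held the most matches among the genes whose window lies outside the annotated gene, and *Mog* was the gene with the steepest rise into white matter. The 250 bases before the start are printed 5′ to 3′ on the gene's strand, with SOX-core and MYRF-type matches on either strand in capitals. They lie at chr9:120149492-120149741 on the plus strand (*Mobp*), chr7:30914923-30915172 on the minus strand (*Mag*, the outer of its overlapping windows) and chr17:37023399-37023648 on the minus strand (*Mog*).
Mobp: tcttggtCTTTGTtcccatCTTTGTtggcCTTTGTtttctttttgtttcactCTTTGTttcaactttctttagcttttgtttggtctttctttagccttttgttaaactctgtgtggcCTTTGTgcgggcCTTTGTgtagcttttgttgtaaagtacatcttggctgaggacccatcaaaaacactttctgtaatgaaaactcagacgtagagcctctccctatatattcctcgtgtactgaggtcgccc
Mag: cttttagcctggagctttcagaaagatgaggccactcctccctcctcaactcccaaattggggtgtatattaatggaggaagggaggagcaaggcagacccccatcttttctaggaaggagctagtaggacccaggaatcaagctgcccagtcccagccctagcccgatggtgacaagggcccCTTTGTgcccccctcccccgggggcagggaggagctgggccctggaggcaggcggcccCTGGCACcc
Mog: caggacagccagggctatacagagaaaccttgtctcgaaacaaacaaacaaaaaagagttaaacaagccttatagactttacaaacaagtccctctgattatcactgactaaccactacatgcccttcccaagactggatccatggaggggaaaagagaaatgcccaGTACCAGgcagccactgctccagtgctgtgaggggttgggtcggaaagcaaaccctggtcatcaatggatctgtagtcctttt

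The *Mobp* window held 6 matches to CTTTGT, the reverse complement of ACAAAG, and of 32851 windows in the table it was the only one with 6 or more matches to the SOX-core and MYRF-type sequences, a count looked at after the matches were seen. ACAAAG occurred in 18.7% of all windows and in those of *Cnp*, *Mag* and *Mobp*. ACAATG occurred in 12.6% of all windows and in that of *Ermn*. CTGGCAC was in 5.01% of windows and in those of *Cnp* and *Mag*, and CTGGTAC was in 2.24% and in that of *Mog*. TATAAA was in 8.32% of windows and, of the 8 genes, in that of *Aspa*. These are matches of letters, with no measurement of binding here.

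The files held 1435 to 2359 spots per section and 19261710 to 37002379 unique molecular identifiers (UMIs, each standing for 1 captured RNA molecule). Spots with at least 500 UMIs were used (1431 to 2358 per section), with a median of 8862.5 to 15296.5 UMIs per spot. Spot positions were not used here, so depth in white matter was read from the RNA itself. Each spot received a white matter score, the UMIs of 14 oligodendrocyte genes outside the 9 (among them *Ugt8a*, *Gjb1*, *Hapln2*, *Fa2h*, *Pllp*, *Tspan2*, *Opalin*, *Gpr37*, *Adamts4*, *Tmem88b*, *Ppp1r14a*, *Nkx6-2* and *Josd2*) in excess of the number its total predicts, divided by the square root of that number. The 10% of spots with the highest score in a section (143 to 235 spots) are called white matter-high and the 50% with the lowest score (716 to 1179 spots) low. White matter-high spots were shallower, with a median of 4370 to 8570 UMIs against 10526 to 17498 in low spots, and the part of this difference in the results was not tested beyond the depth-matched values given below. Choroid plexus-marker spots were unevenly spread, with 189, 4, 7 and 76 in sections 1 to 4.

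The level of every one of the 9 genes was lowest in section 2. Summed over the genes, the level was 3112, 1965, 3045 and 2668 UMIs per 1000000 UMIs of the section (CPM) in sections 1 to 4, a mean of 2698 ± 526 (SD, n = 4), and sections 1, 3 and 4 lay above section 2 without overlap of their exact Poisson 95% intervals, which cover counting error only (1951 to 1980 CPM in section 2 against 2645 to 2691 in section 4, the next lowest). Since every section has the same genotype, these values describe sections and were not tested. In bulk captures such as spots, fewer oligodendrocytes and less RNA per oligodendrocyte cannot be told apart.

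*Mbp* stood at 1767, 1143, 1818 and 1535 CPM in sections 1 to 4, a mean of 1566 ± 307 (SD). *Mobp* stood at 387, 261, 370 and 341 CPM, a mean of 340 ± 55.8. For both, sections 1 and 3 were highest and close to each other. *Mal* stood at 248, 123, 206 and 171 CPM, and *Cldn11* at 175, 90.2, 135 and 140 CPM. These 2 compact-membrane genes were highest in section 1 and varied most between sections, with SDs of 28.4% and 25.6% of their means against 16.4% to 24.1% for the other 7 genes.

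*Mog*, the surface gene, stood at 90.3, 54.6, 95.04 and 77.5 CPM, and *Mag* at 126, 85.1, 116 and 120 CPM. *Cnp* stood at 250, 163, 227 and 214 CPM. *Mog* followed the order of *Mbp*, with section 3 highest, whereas *Mag* and *Cnp* were highest in section 1. *Ermn* stood at 43.3, 27.7, 51.5 and 44.1 CPM and *Aspa* at 26.9, 17.9, 27.3 and 26.5 CPM, so that the 3 sections other than section 2 were nearly alike for *Aspa*. UMI counts were not divided by transcript length, and the levels of different genes were not tested against each other.

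**Figure D1:**
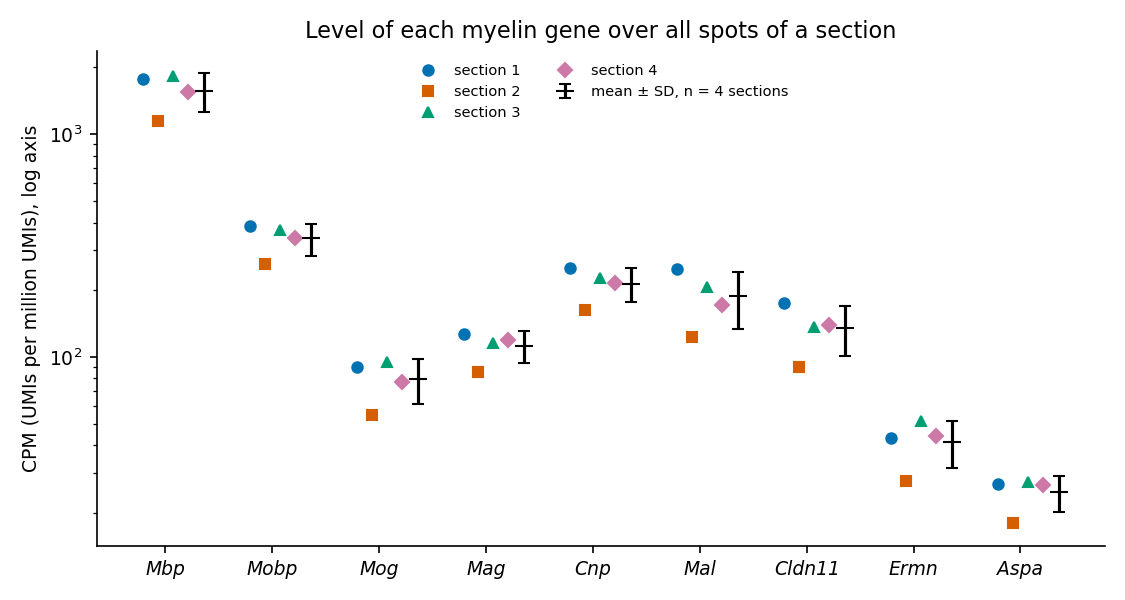
Level of the 9 genes in each section, in CPM on a log axis, with symbols for sections 1 to 4 and the mean ± SD over the 4 sections beside them. Section 2 (squares) lies lowest for each gene, for example at 1143 CPM for *Mbp* and 17.9 CPM for *Aspa*.

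Section 2 was also lowest within the white matter-high spots. There *Mbp* stood at 6615, 4074, 8114 and 7267 CPM and *Mog* at 432, 279, 626 and 543 CPM. White matter-high spots are a fixed share of each section's spots, whatever its white matter content. Less myelin RNA within white matter and less white matter were therefore not told apart. In the top 5% of spots, the log2 ratio of *Mbp* to low spots was 2.96 and 3.12 in sections 1 and 2. It was 2.68 and 2.42 in the white matter-high spots. In that top 5%, section 2 exceeded section 1 for every gene of the 9 but *Aspa* (3.68 against 3.84).

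Every gene rose into white matter. In white matter-high against low spots, all 9 of the 9 genes passed edgeR's quasi-likelihood test as higher (adjusted p 2.2e-19 to 2.4e-17), where 13.9% of 13479 tested genes were called higher and 27.0% were called in either direction. The log2 fold changes ran from 2.84 (SE 0.082) for *Mbp* to 3.78 (SE 0.12) for *Mog*, with a median of 3.49 against -0.02 over all tested genes. Ranked by this fold change, the 9 genes lay between the 11th place (*Mog*) and the 80th place (*Mbp*). The score genes and the 9 genes are products of the same cell type, so this checks the labels of the genes as oligodendrocyte genes rather than testing them independently. All 9 stayed called under each of the 16 alternative settings, with log2 fold changes of 2.16 to 4.39.

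The genes differed in how steeply they rose. *Mbp* had the shallowest step, 6.99 ± 1.36-fold (mean ± SD over 4 sections), and *Mog* the steepest, 13.9 ± 4.55-fold. Steepness is given below as the log2 ratio of CPM in white matter-high to low spots, taken within a section. For *Mbp* it was 2.68, 2.42, 2.98 and 3.06 in sections 1 to 4, a mean of 2.78 ± 0.29 (SD). For *Mobp* it was 2.77, 2.65, 3.11 and 3.36, a mean of 2.97 ± 0.32. For *Mog* it was 3.36, 3.27, 4.12 and 4.19, a mean of 3.74 ± 0.49. Sections 3 and 4 were steeper than sections 1 and 2 for each of the 9 genes, and the ranges of *Mbp* and *Mog* over sections did not overlap. With spots of at least 5000 UMIs this order of sections held only for *Mog*. That cut left out 18, 92, 126 and 75 of the 153, 235, 229 and 143 white matter-high spots in sections 1 to 4. Both groups were then formed anew from the remaining spots, so they differ from the main groups in their spots as well as in depth. Under that cut, section 1 lay above section 3 for every other gene of the 9. There *Mbp* was at 2.57, 1.73, 2.02 and 2.18 in sections 1 to 4, and *Mog* at 3.24, 2.60, 3.40 and 3.36.

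Between these ends lay *Cnp* (3.23 ± 0.31), *Aspa* (3.34 ± 0.30), *Cldn11* (3.44 ± 0.44), *Mag* (3.53 ± 0.35), *Mal* (3.57 ± 0.36) and *Ermn* (3.59 ± 0.43), and the median over the 9 genes was 3.44. The compact-membrane genes did not stay together, since *Mal* and *Cldn11* sat with *Mag* and *Ermn* rather than with *Mbp* and *Mobp*. Counting error was small beside the spread between sections for *Mbp* (SE 0.019 to 0.023 per section) and larger for *Aspa* (0.15 to 0.18) and *Ermn* (0.12 to 0.14).

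Because all genes were counted in the same spots, pairs were compared within sections. Of 36 pairs, 31 differed in the same direction in all 4 sections, 3 in 3 of 4 and 2 in 2 of 4. A shared direction did not always exceed counting error. *Mal* over *Mag* (0.03 ± 0.02) and *Ermn* over *Cldn11* (0.15 ± 0.05) lay within it in every section. The differences of *Mbp* from the other 8 genes lay beyond it in every section. With 4 sections an exact two-sided sign-flip permutation test cannot reach 0.05, and its smallest value after Benjamini-Hochberg adjustment over the 36 pairs was 0.145. *Mbp* was shallower than each of the other 8 genes in every section, by 0.19 ± 0.09 on the log2 scale against *Mobp* and by 0.95 ± 0.22 against *Mog*. *Mobp* was shallower than the other 7 genes in every section, by 0.26 ± 0.04 against *Cnp* and 0.76 ± 0.19 against *Mog*. Neighbours in the upper part of the order did not separate, as *Ermn* exceeded *Mal* by 0.02 ± 0.09 in 2 of 4 sections, *Ermn* exceeded *Mag* by 0.05 ± 0.10 in 3 of 4, and *Cldn11* exceeded *Aspa* by 0.10 ± 0.25 in 2 of 4. *Mog* was above *Ermn*, its nearest neighbour, by 0.15 ± 0.06 in 4 of 4 sections, within counting error in each section.

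**Figure D2:**
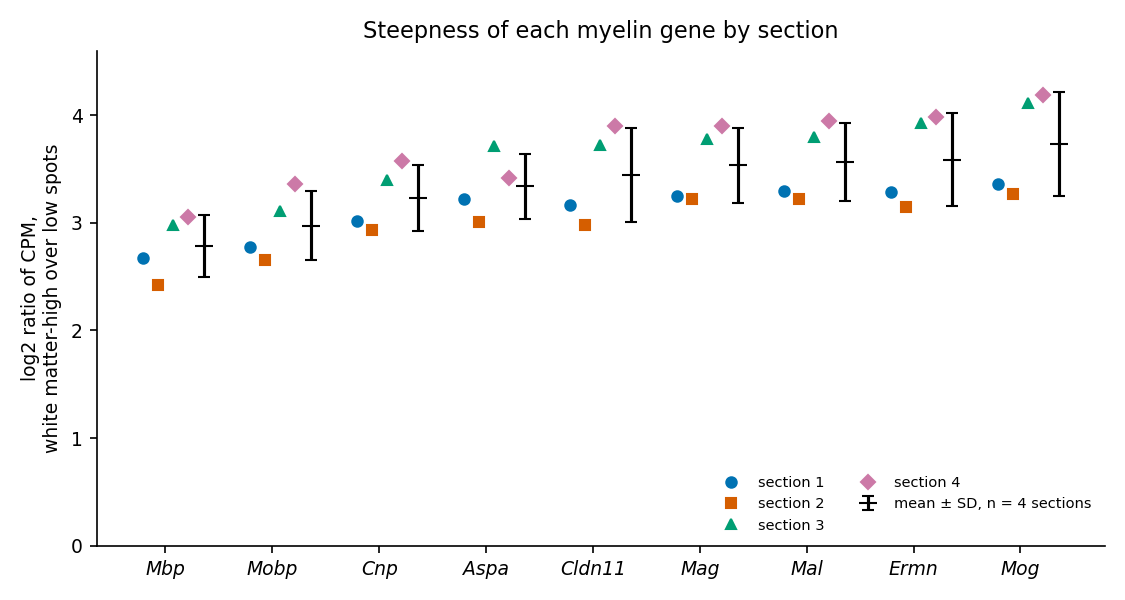
Steepness of the 9 genes, ordered by their mean: the log2 ratio of CPM in white matter-high to low spots in each section (symbols) with the mean ± SD over the 4 sections. *Mbp* is lowest with a mean of 2.78 and *Mog* highest of the 9 with 3.74, and sections 3 and 4 lie above sections 1 and 2.

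With low spots chosen to match the total UMIs of the white matter-high spots as nearly as possible, an alternative added after the data were seen, the median steepness was 3.14. *Mbp* was still lowest by its mean (2.57 ± 0.40) but in 2 of 4 sections, since *Mobp* tied it in section 1 (both 2.63) and *Aspa* lay below it in section 4 (2.68 against 2.90). *Mog* was still highest by its mean (3.53 ± 0.47) but in 3 of 4 sections. In section 1 it was at 3.30, below *Mal* (3.54) and *Aspa* (3.53). Matching was incomplete, most of all in section 2, where the medians were 6492 UMIs per spot in white matter-high and 10738 in matched low spots. In the same order, the medians were 8570 and 9185 in section 1, 4370 and 5143 in section 3, and 4823 and 6527 in section 4. With spots of at least 5000 UMIs, in place of matching, *Mog* was highest by its mean and in 2 of 4 sections.

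Along the whole score, most of the change came at the top. Spots were divided into deciles (10 equal groups) by white matter score, and CPM in each was expressed as a percent of the top decile. *Mbp* climbed from 11.01 ± 3.11% in the lowest decile to 19.0 ± 3.18% in the middle one (decile 5), 42.0 ± 3.67% in decile 9 and then 100% in decile 10. *Mobp* ran from 9.06 ± 2.62% through 17.6 ± 3.84% to 40.2 ± 3.60% at the same points. *Mog* ran lower throughout, from 6.14 ± 2.19% through 9.83 ± 2.46% to 35.5 ± 6.85%. The CPM of *Mbp* therefore went from 680 in the lowest decile to 2697 in decile 9 and 6518 in the top decile (means of 4 sections). Of the 9 steps from one decile to the next, each gene took at least 7 upward in every section, and the summed level rose in 8 steps in section 2 and in all 9 in the other sections.

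**Figure D3:**
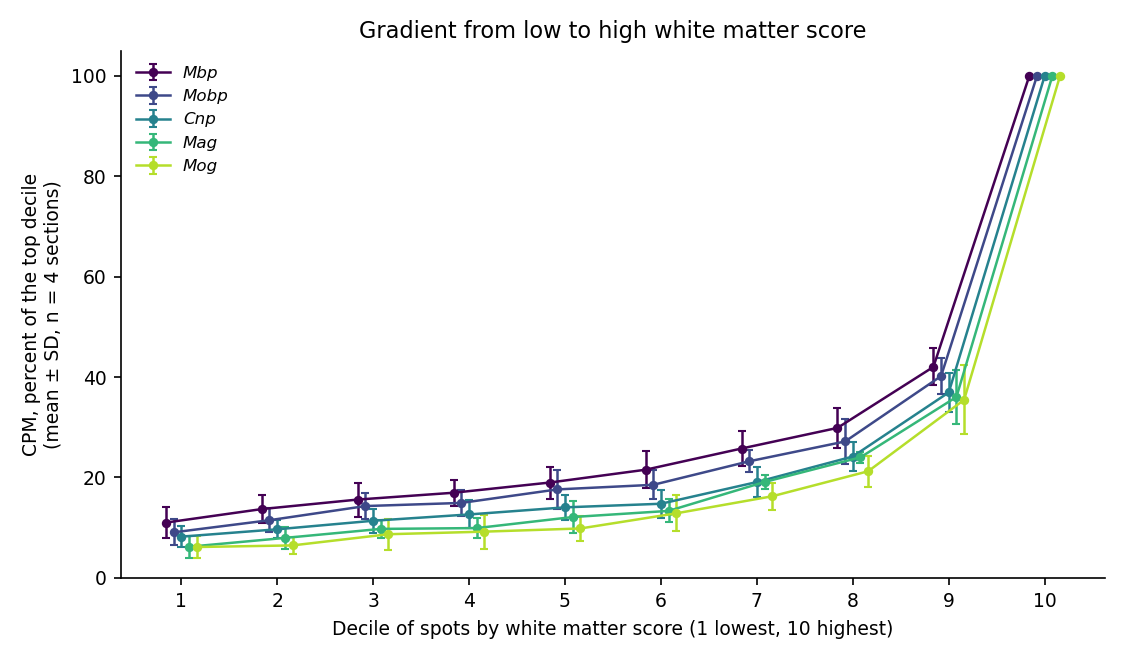
CPM of 5 of the genes in each decile of spots by white matter score, as a percent of the top decile (points, mean ± SD over 4 sections, lines join the deciles). *Mbp* lies highest and *Mog* lowest below the top decile, at 19.0% and 9.83% in decile 5, and in decile 9 no gene shown has a mean above 42.0%.

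A sizeable part of the UMIs of these genes lay outside white matter-high spots. The low spots held 58.5 ± 1.46% of the UMIs of all genes. They held 33.2, 38.8, 33.4 and 34.2% of *Mbp* UMIs in sections 1 to 4 (mean 34.9 ± 2.64%) and 32.4, 37.2, 32.6 and 30.8% of *Mobp* UMIs (mean 33.3 ± 2.76%). For *Mog* the share was 26.4, 30.8, 22.3 and 23.1% (mean 25.7 ± 3.86%). Section 2 had the highest share in low spots for each of the 9 genes. *Cnp* (31.3 ± 2.77%) and *Cldn11* (28.7 ± 3.71%) followed *Mobp*, and *Aspa* (27.7 ± 2.17%), *Mag* (27.3 ± 2.84%), *Mal* (27.1 ± 2.99%) and *Ermn* (25.9 ± 3.45%) differed by less than their SDs. For comparison, white matter-high spots held 5.34% of all UMIs, 21.9 ± 3.23% of *Mbp* UMIs and 31.1 ± 5.16% of *Mog* UMIs.

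**Figure D4:**
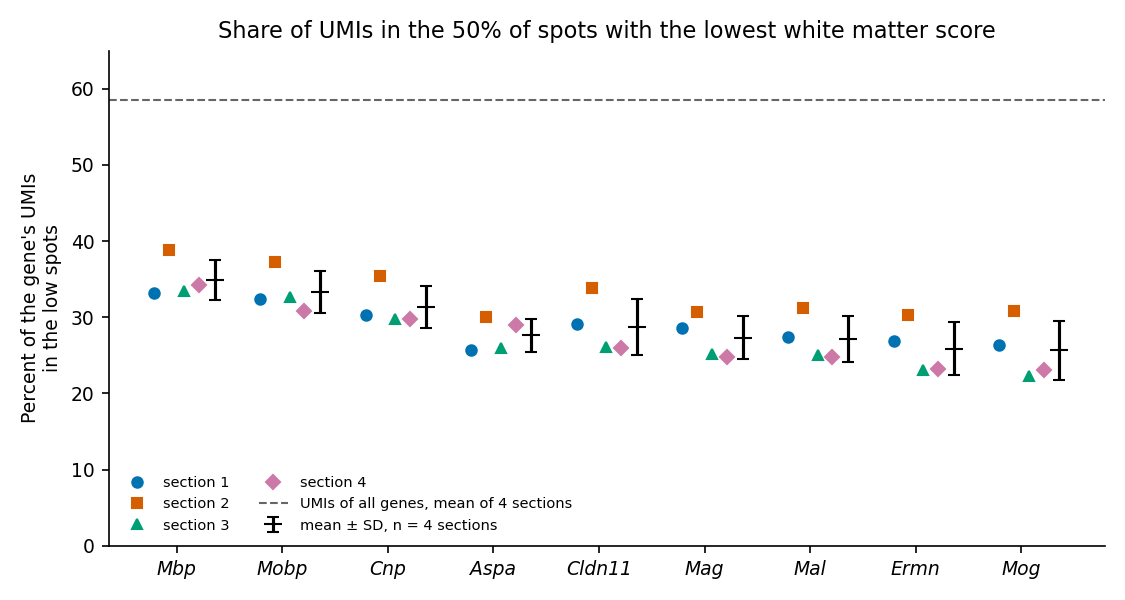
Percent of each gene's UMIs that lay in the 50% of spots with the lowest white matter score, by section (symbols) with the mean ± SD over the 4 sections, for the 9 genes in order of steepness. The dashed line is the share of all genes' UMIs in those spots, 58.5%, and every gene lies below it, with section 2 highest for each.

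The mix of myelin transcripts shifted accordingly. *Mbp* made up 52.8, 52.2, 54.5 and 51.9% of the UMIs of the 9 genes in white matter-high spots of sections 1 to 4, and 59.6, 61.3, 63.8 and 62.7% in low spots, without overlap. *Mog* made up 3.78 ± 0.34% in white matter-high and 2.28 ± 0.12% in low spots. *Mal* went the same way as *Mog*, from 8.29 ± 0.74% to 5.66 ± 0.83%. *Mobp* was at 12.6 ± 0.71% and 12.8 ± 0.39%, a difference smaller than the SDs.

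Whether a single low spot held a transcript depended on its depth, so spots with at least 5000 UMIs were thinned to 5000 UMIs each, which left out 15 to 107 low spots per section. The expected share of low spots with a UMI of *Mbp* was then 96.0 ± 1.69%, of *Mobp* 57.8 ± 4.35%, of *Mag* 23.1 ± 2.82%, of *Mog* 15.7 ± 2.42% and of *Aspa* 5.84 ± 0.67%. Before thinning and with all low spots of at least 500 UMIs, *Mog* was found in 46.3, 38.6, 31.6 and 34.1% of low spots. Spots with 5 or more markers of choroid plexus, a tissue that makes no myelin, were set beside them. Thinned in the same way, such spots held *Mog* UMIs in 30.7% of 72 spots in section 1 and 22.2% of 22 spots in section 4, against 18.9% and 13.8% of low spots, with median depths before thinning of 15307.5 and 8054.5 against 16665.5 and 15707 UMIs. For all 9 genes in both sections the low-spot share was below the choroid plexus-spot share, but these spots were not limited to low scores. Of the spots with 3 or more choroid plexus markers, 13 of 189 in section 1 and 19 of 76 in section 4 were themselves white matter-high. The number among the spots with 5 or more markers is not given here. Because those spots were not chosen by score, they are not taken as a myelin-free background. How much of the UMIs in low spots came from cells of the low spots was not tested.

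The other oligodendrocyte genes moved with the 9. Of 16 further myelin or oligodendrocyte genes, 16 were higher in white matter-high spots by the same test, with a median log2 fold change of 2.61. The spots were picked by genes of the same cell type. Calls of oligodendrocyte genes here, like those of the 9, are therefore not independent of that choice. For this and the next 2 lists, 13.9% of all tested genes were called higher. Among them were *Evi2a* (3.33), *Trf*, which encodes transferrin (3.16), and *Gjc3*, a glial connexin (3.05). Of 7 genes of newly formed oligodendrocytes 5 were higher, among them *Enpp6* (4.04, SE 0.20), *Bcas1* (2.55), *Gpr17* (1.35) and *Tcf7l2* (1.07). The fold change of *Enpp6* was above that of *Mog* (3.78, SE 0.12), the highest of the 9, but this difference was not tested. Of 12 genes of myelin lipid synthesis 7 were higher, with a median of only 0.34. The sphingolipid and fatty acid enzymes *Gal3st1* (2.79), *Cers2* (2.40), *Elovl1* (2.25) and *Scd2* (1.40) led this list, while the cholesterol synthesis genes *Sqle* (0.10), *Fdft1* (0.05) and *Idi1* (0.32) did not pass the test.

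The genes of the axon and of its junction with myelin were divided. Of 10 such genes 4 were higher and 4 lower, where 13.9% and 13.2% of all tested genes were. Higher were *Cntn2* (1.80), *Kcna1* (1.48), *Nfasc* (1.25) and *Epb41l3* (0.85). *Nfasc* is made by both oligodendrocytes and neurons, as different isoforms that gene counts do not separate. Of the axonal partners at the paranode, *Cntnap1* was lower (-0.49, SE 0.10) and *Cntn1* was at -0.15 (adjusted p = 0.15). *Mag*, which faces the axon, was higher by 3.58 (SE 0.10) in the same comparison.

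Markers of neurons, astrocytes and microglia moved with the score too, and their part in the results for the 9 genes was not tested. All 10 of 10 neuronal markers were lower (median -0.65), where 13.2% of all tested genes were, led by *Slc17a7* (-0.90), *Camk2a* (-0.83), *Snap25* and *Nefl* (both -0.73). Of 8 astrocyte markers 5 were higher, *Gfap* by 2.68, *Aqp4* by 0.71 and *Gja1* by 0.53, and of 6 microglial markers 5, with *C1qa* at 0.70, *Tmem119* at 0.64 and *Csf1r* at 0.58. Of 5 endothelial markers 1 (*Ly6c1*, 0.32), of 5 ependymal markers 1 (*Foxj1*, 1.14), and of 10 choroid plexus and 5 fibroblast markers none were called. Over all tested genes 13.9% were called higher. The endothelial and ependymal counts lie near that share and are not read as a result about these cells. Of 4 peripheral myelin genes only *Pmp22* had enough UMIs to be tested (2.16).

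Among the genes whose UMIs followed the summed 9 most closely across spots were *Fth1*, the ferritin heavy chain (mean Pearson r over sections 0.72, range 0.68 to 0.80), *Scd2* (0.45), *Qdpr* (0.42) and *Trf* (0.41), with 7299 genes compared on log2(CPM + 1) in spots with at least 5000 UMIs. *Qdpr* encodes a pterin reductase. Taken alone, *Mbp* was nearest to *Fth1* (0.68). These are correlations across spots that share a library, and they are lower for genes with few UMIs, so they are given as descriptions.

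The study sought differences at places where oligodendrocyte precursor cells (OPCs) are crowded in *Nf1*-mutant brain. Region outlines were not used here, so the 10% of spots with the highest score for 8 OPC markers (*Neu4*, *Matn4*, *Pdgfra*, *C1ql1*, *Cspg4*, *Pcdh15*, *Lhfpl3* and *Cacng4*) stood in for such places. Myelin genes were higher in OPC-marker-high spots than in all other spots, and not detectably so once the spots were matched on the white matter score. Against all other spots, 8 of the 9 genes were called higher by edgeR's quasi-likelihood test, where 2.76% of 14258 tested genes were called higher. The median log2 fold change of the 9 was 0.41, against 0.00 over all tested genes.

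*Mal* led with 0.45 (SE 0.05), being higher in 4 of 4 sections by 0.57, 0.41, 0.47 and 0.36. *Mbp* was higher by 0.37 (SE 0.03), or 0.47, 0.27, 0.44 and 0.32 in sections 1 to 4. *Aspa* did not pass the test (0.28, SE 0.11, adjusted p = 0.13 by edgeR), with 0.53, 0.44, 0.09 and 0.04 in the 4 sections. All 9 differences were positive in every section, and section 1 held the largest for each of the 9. Without the section as a block, which ignores that both groups of spots come from the same section, 0 of the 9 were called by edgeR (3 at an unadjusted p under 0.05). Only 8 of all 14258 tested genes were called in that setting, and 915 had an unadjusted p under 0.05. With *Pdgfra* alone as the score 5 of the 9 were called, where 290 of 14391 tested genes were called higher.

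OPC-marker-high spots were not evenly placed along the white matter score. Of them, 12.2 to 20.3% per section were also white matter-high, where an even placing would give 10%, and 34.0 to 44.1% were low, where it would give 50%. Of the 8 OPC markers themselves, 5 were higher in white matter-high than in low spots, *Neu4* by 1.38 and *Pdgfra* by 0.82. Each OPC-marker-high spot was therefore compared with up to 3 other spots from the same decile of the white matter score in its section, nearest in total UMIs.

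After this matching none of the 9 genes was called by edgeR's quasi-likelihood test (0 of 9 at an unadjusted p under 0.05, and 0 by DESeq2), where 2.89% of 12633 tested genes were called. The log2 fold changes ran from -0.13 (SE 0.11) for *Aspa* to 0.07 (SE 0.08) for *Ermn*, with a median of 0.00, against 0.00 over all tested genes, and *Mbp* was at 0.00 (SE 0.04). In single sections *Mbp* was at -0.01, -0.09, 0.16 and -0.05. *Mag* was the only gene on 1 side of 0 in all 4 sections, at -0.10, -0.10, -0.01 and -0.09, with an adjusted p of 0.60. The match was made on oligodendrocyte genes, so a difference that the 9 genes share with the score genes would be matched away with it.

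In the same matched comparison, 2 of the 16 further oligodendrocyte genes were called higher, against 1.30% of all tested genes, *Cd9* (0.41, SE 0.08) and *Efnb3* (0.25, SE 0.07). *Gpr17*, a marker of cells newly committed to the oligodendrocyte lineage, was higher by 1.32 (SE 0.13, adjusted p = 4.9e-09) and in 4 of 4 sections. The spots were picked by OPC markers of the same lineage, so the value for *Gpr17* is not independent of that choice. *Enpp6* was at 0.09 (SE 0.19) and *Bcas1* at 0.14 (SE 0.07), and neither passed the test.

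**Figure D5:**
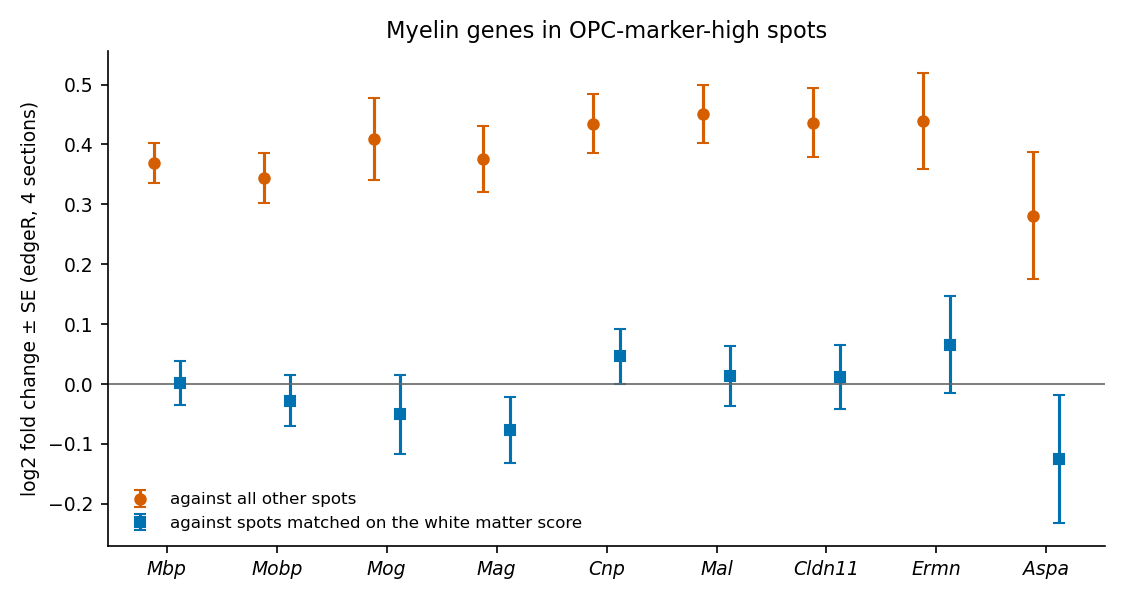
Log2 fold change ± SE (edgeR, 4 sections) of the 9 genes in OPC-marker-high spots, against all other spots (circles) and against spots matched on the white matter score (squares), with a line at 0. Circles lie between 0.28 (*Aspa*) and 0.45 (*Mal*), and squares between -0.13 (*Aspa*) and 0.07 (*Ermn*).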

How the data were processed

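The deposited values are raw UMI counts of each gene in each spot of 4 Visium sections, made per the file headers with Space Ranger 1.3.1 and per the submitters' processing notes on mm10, with no normalization. The deposited files keep each spot separate, and all 4 sections entered the edgeR comparisons, except where 1 was left out as an alternative. Pairs of sections differed beyond sampling noise, so each counted once. Genes were matched by symbol, and 427 to 1989 spot barcodes recurred between pairs of sections, as each Visium capture area carries the same barcode set.

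The 9 genes, the score genes and all lists were chosen with earlier results of these data known. Spots with at least 500 UMIs were used. UMIs of a spot group were added up within each section, and the 8 sums of a comparison were tested with edgeR 4.0.16 in R 4.3.3 (TMM, filterByExpr, quasi-likelihood F-test, Benjamini-Hochberg adjustment over all tested genes, threshold 0.05), with the section as a block and score genes left out of calls. Standard errors were recovered from the fold change and F (log2 fold change over the root of F). Sums of 1 section share its tissue and are paired by it, and after subtracting group means they correlated at 0.30 to 0.66 over genes. With sections as replicates whose separate origin is not stated, p-values speak for these sections only. The quasi-likelihood fit also moderates the spread of each gene across all tested genes. Very small p-values are therefore not read as a measure of the spread of that gene alone. The test was tried on simulated data in which fewer genes changed, and by less, than in the white matter comparison. That trial does not cover the setting of that comparison. Steepness is computed with 0.5 UMIs added to each sum. Thinned shares are expected shares at 5000 UMIs. A spot can hold several cells, so no cell types were assigned, and no doublet caller was run. UMI totals set the precision: a section held 511 to 663 UMIs of *Aspa* and 29575 to 42295 of *Mbp*.

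Named genes are the 9, up to 4 genes per list with an adjusted p under 0.05, the same direction in all 4 sections and the largest absolute fold change, and the genes nearest in correlation; genes named outside this rule were chosen after their values were seen. Some genes of the lists and of the score, with results that turn on them, are not reported here. Alternatives were the top 5% or 20% of spots, all other spots, *Pdgfra* alone as the OPC score, UMI shares, at least 5000 UMIs, choroid plexus-marker spots (3 or more of 10 markers) left out, DESeq2 1.42.0, scaling by total UMIs, testing genes without a minimum, no replicate block, and leaving out 1 section at a time. Low spots matched in total UMIs were added after the data were seen. Python 3.11.15 with numpy 2.4.6, scipy 1.17.1 and pandas 2.3.3 was used for the rest.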

Additional observations from a re-analysis of the deposited data

Results flagged for a closer look

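Of 63 values of the 9 genes examined for a section that stands apart from the other 3, the 3 below did, and chance alone would give about 3.15. The level of *Aspa* was 17.9 CPM in section 2, against 26.5 to 27.3 CPM in the other sections. The share of *Cnp* UMIs in low spots was 35.5% in section 2, against 29.8% to 30.3% in the others. The log2 ratio of *Mag* in OPC-marker-high against matched spots was -0.0129 in section 3, against -0.0988 to -0.0907 in the others. Section 2 had the lowest level and the highest share in low spots for all 9 genes, so the first 2 values go the same way as those of the other genes in that section.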

How the results depend on the processing

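The calls of the 9 genes in white matter-high against low spots held in 144 of 144 gene and setting pairs, while the number of genes called over the whole table, 3645, was 2268 with spots of at least 5000 UMIs, 1748 with low spots matched in total UMIs and 2468 to 3569 with 1 section left out. Without the replicate block 2682 genes were called, and the block changed no call of the 9 there. The median steepness of 3.44 was 4.04 with the top 5% of spots, 2.76 with the top 20%, 2.81 against all other spots and 2.86 with spots of at least 5000 UMIs, and 3.32 to 3.60 with 1 section left out; *Mbp* had the lowest mean in all 10 settings. The median share of UMIs in low spots, 27.7%, was 12.9% in the lowest 25% of spots, which hold fewer UMIs by construction, and 26.9% to 28.3% with 1 section left out. The summed level of 2698 CPM was 2560 to 2942 CPM with 1 section left out, highest without section 2.

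In OPC-marker-high against other spots, 828 genes were called, and 343 with the top 5% of spots, 524 with *Pdgfra* alone, 331 with DESeq2 and 8 without the replicate block (915 at an unadjusted p under 0.05). Leaving out 1 section gave 496 to 869, with 496 without section 2 and 528 without section 3. For the 9 genes, 96 of 108 gene and setting pairs kept their side of the threshold and 12 lost the call, with log2 fold changes of 0.13 to 0.53 and no change of sign. In the matched comparison, 365 genes were called, and 68 with DESeq2, 5 without the replicate block (522 at an unadjusted p under 0.05) and 157 to 342 with 1 section left out, with 175 without section 2 and 157 without section 4. None of the 9 genes was called in any matched setting (adjusted p 0.60 to 1.00). With 1 section left out, the log2 fold change of some crossed 0, at -0.053 (without section 3) to 0.034 for *Mbp*, -0.056 to 0.012 (without section 1) for *Mobp*, -0.10 to 0.012 (without section 4) for *Mog*, -0.038 (without section 3) to 0.053 for *Mal* and -0.0082 (without section 1) to 0.050 for *Cldn11*, which was at -0.0010 without section 3. The cause of these differences was not tested. Depth limits *Aspa* and *Ermn* most.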

Other observations

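Spots with 5 or more choroid plexus markers numbered 73, 0, 3 and 34 in sections 1 to 4, and their myelin RNA is given for sections 1 and 4. They were not limited to low white matter scores. In section 1 these spots held *Mbp* at 1393 CPM against 1049 CPM in low spots outside this set, a log2 ratio of 0.41. In section 4 they held *Mbp* at 2790 CPM against 877 CPM, a log2 ratio of 1.67. *Ermn* had the highest ratio of the 9 genes in both sections, 1.01 (50 UMIs) and 2.51 (23 UMIs). *Cldn11* was next at 0.91 (202 UMIs) and 2.37 (74 UMIs), and this order of genes was not tested. *Mobp* had the lowest in section 1 (0.37) and *Mbp* the lowest in section 4. The difference between the sections was not tested.

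In section 2, 28 spots held 4 or more of the 5 fibroblast markers, a threshold set after the data were seen. These spots, too, were not limited to low white matter scores. *Mbp* (268 UMIs) was at the level of low spots, with a log2 ratio of -0.04, and *Mobp* (54 UMIs) was at -0.15. *Cldn11* was at 1.15 (41 UMIs), *Mal* at 0.88 (43 UMIs) and *Aspa* at 1.68 (10 UMIs). The others lay between, with *Cnp* at 0.47 (49 UMIs), *Mag* at 0.27 (19 UMIs), *Ermn* at 0.07 (5 UMIs) and *Mog* at -0.13 (9 UMIs). These are sums over spots of 1 section with few UMIs and have no replicate.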
